A study of Mus musculus with 172 samples.

Results

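Brain cortex and liver of recombinant inbred mouse lines were compared by the allele each line carries at Kif16b, a gene on distal chromosome 2. The lines descend from C57BL/6J (B6) and DBA/2J (D2) mice, and each is homozygous for one parental allele at almost every locus. The 33 BXD/RwwJ lines with a known allele were used. Alleles were taken as the study showed them by colour in its plots of the lines, where the colour of BXD64, counted here as a D2 carrier, differed between traits. Genotype data were not used here. Of the lines, 18 carry the D2 allele and 15 the B6 allele (BXD43, BXD44, BXD45, BXD55, BXD56, BXD67, BXD71, BXD73, BXD73b, BXD81, BXD85, BXD87, BXD89, BXD95 and BXD100). They account for 132 of the 172 RNA-seq libraries of the series, 72 from D2 carriers and 60 from B6 carriers. The locus was singled out with the Kif16b levels of these lines already known, so the difference in Kif16b itself is no independent finding.

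The study asked how genotype shapes the response to lost sleep. Male mice aged 11 to 14 weeks were either left undisturbed (Ctr) or kept awake for the first 6 h of the light phase (SD), and all were killed 6 h after light onset. For each line, tissue and condition, RNA was pooled, usually from 3 mice, and sequenced as 1 library. Each line therefore has 4 libraries, 1 for each tissue and condition, and the line is the unit of every comparison. By their names, BXD48 and BXD48a, BXD65 and BXD65a, and BXD73 and BXD73b are families of sublines. Both members of each family are in the same allele group, so they may not be independent units. Pools of the parental strains C57BL/6J and DBA/2J (2 per strain, tissue and condition) and of the 2 reciprocal F1 crosses were sequenced alongside. Cortex libraries of the 33 lines held 19025159 to 28998853 counted reads (median 22584170) and liver libraries 4681101 to 8269401 (median 6682413). The labelled tissues carried their markers. The 5 neuron markers summed to a median of 8400 CPM (reads scaled to the library total) in cortex Ctr libraries of D2 carriers, and the 4 hepatocyte markers to 1280 CPM in liver.

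Kif16b encodes a kinesin-3 motor that carries early endosomes toward the plus ends of microtubules. Through that transport it bears on where growth factor receptors and other endosomal cargo go, and in neurons on cargo sorting in dendrites. In recombinant inbred lines, long stretches of a parental chromosome are inherited together, so lines that share an allele at one gene usually share those of its neighbours. A comparison by the Kif16b allele is therefore also a comparison of a whole stretch of chromosome 2.

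In cortex, Kif16b was lower in D2 carriers than in B6 carriers in both conditions. In Ctr, the D2 carriers ranged from 3.79 to 4.28 log2 CPM with a median of 4.22, and the B6 carriers from 4.26 to 4.85 with a median of 4.70. The ranges meet only through BXD56, the lowest B6 carrier, which lay at the level of the D2 carriers. After SD, the D2 carriers ranged from 3.60 to 3.90 (median 3.75) and the B6 carriers from 4.09 to 4.51 (median 4.35), and no line of one group reached the other. The difference, D2 minus B6, was -0.55 ± 0.05 (standard error, 18 and 15 lines, adjusted p = 1.15e-09) in Ctr and -0.57 ± 0.03 (adjusted p = 5.03e-14) after SD. On a linear scale the D2 carriers averaged 17.7 CPM and the B6 carriers 25.9 CPM in Ctr. A permutation test over lines gave p = 2e-05 in each condition, the smallest value that 100000 permutations can give here.

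In liver the order of the alleles was turned around. Ctr levels of Kif16b ran from 5.94 to 6.57 log2 CPM in D2 carriers (median 6.27) and from 5.63 to 6.17 in B6 carriers (median 5.93). The ranges overlapped, with 2 D2 and 4 B6 carriers on the far side of the midpoint between the group means. D2 carriers were higher by 0.37 ± 0.06 log2 (adjusted p = 0.00081, permutation p = 2e-05). After SD the difference was 0.41 ± 0.10, which did not pass the threshold over all genes (adjusted p = 0.113). The call turns on BXD70, a D2 carrier whose SD pool read 4.95 while the median of its group was 6.32. That pool held 4681101 counted reads, the fewest among the liver libraries of the lines. Without BXD70 the difference was 0.49 (adjusted p = 8.62e-05). Without BXD64, the line of uncertain allele, the Ctr difference was -0.55 in cortex and 0.39 in liver, both with an adjusted p under 0.05.

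**Figure D1:**
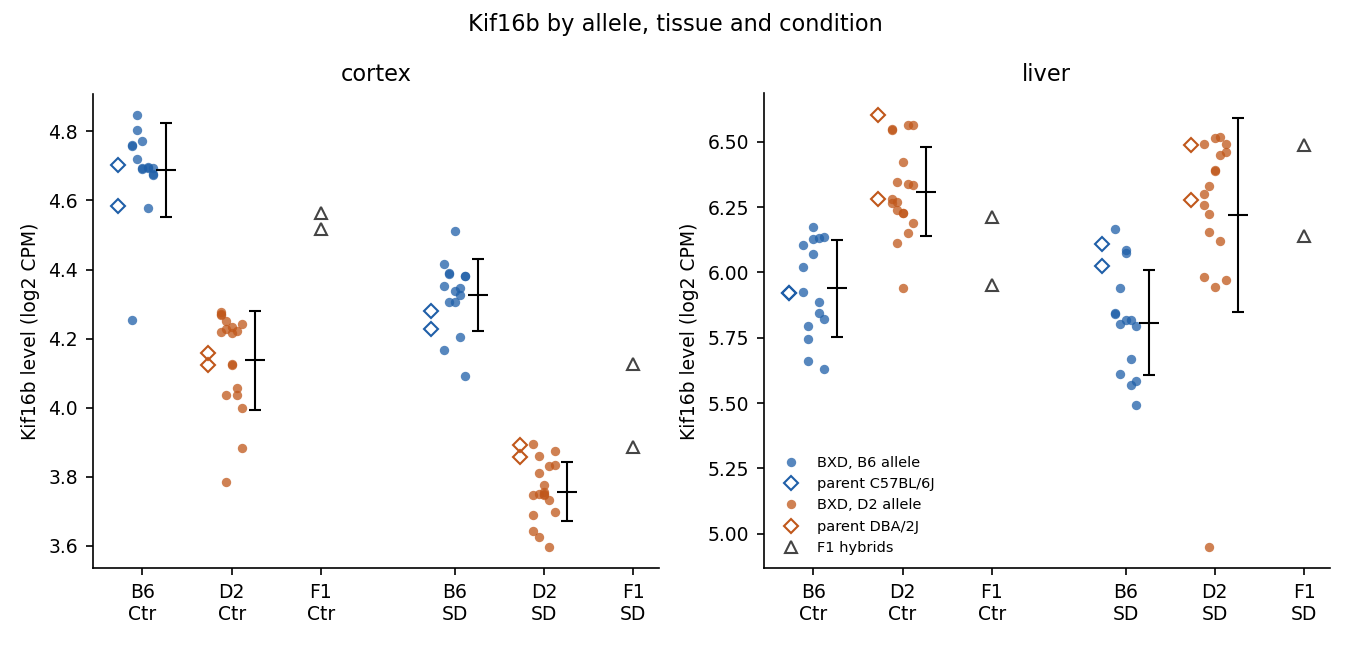
Kif16b level (log2 CPM) in cortex and liver for every BXD/RwwJ line by allele and condition, with the mean and standard deviation of each group as bars, and the pools of the parental strains and F1 crosses as open symbols. In cortex the D2 carriers lie below the B6 carriers (medians 4.22 and 4.70 in Ctr), and in liver above them (6.27 and 5.93).

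The change in the sign was tested directly, by taking liver minus cortex within each line. For Kif16b the allele difference in Ctr was 0.92 ± 0.08 log2 higher in liver than in cortex (adjusted p = 1.42e-09), and 0.98 higher after SD (adjusted p = 5.01e-07). The parental strains, which played no part in sorting the lines, differed in the same directions. DBA/2J pools were below C57BL/6J pools by -0.44 ± 0.06 in cortex (adjusted p = 5.27e-05) and above them by 0.42 ± 0.08 in liver (adjusted p = 0.00303, limma on 8 pools per tissue). The F1 pools read 4.56 and 4.52 in cortex Ctr, and 5.95 and 6.21 in liver Ctr. Reads were aligned to a reference built from the B6 genome, and the part that reads from D2 haplotypes missed in these differences was not tested.

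The neighbours of Kif16b differed between the carriers as well. Of 14896 genes listed in cortex, 95 (0.638%) were called in Ctr, that is, had an adjusted p under 0.05 over all genes. These were 27 genes higher and 68 lower in D2 carriers. Genes within 10 Mb of Kif16b on either side are termed linked here. In that window 24 of 96 listed genes were called, 20 of them lower in D2 carriers. What part reads missed from D2 haplotypes had in these counts was not tested. All counts of linked genes, and of genes within 2 Mb, include Kif16b itself. Nearest to the locus the share was higher still: 18 of the 20 genes within 2 Mb were called, against 3 of 17 from 2 to 5 Mb and 3 of 59 from 5 to 10 Mb. The exceptions within 2 Mb were Macrod2 (-0.12, adjusted p = 0.405) and Gm561 (0.04, adjusted p = 1). Distances are given from the middle of Kif16b, which lies on chromosome 2 of mm9 from 142443210 to 142727267, with negative values on the proximal side.

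Snrpb2, a protein of the U2 splicing particle, is the nearest neighbour called, at 0.308 Mb. Its Ctr levels ran from 3.61 to 4.07 log2 CPM in D2 carriers (median 3.81) and from 4.27 to 4.60 in B6 carriers (median 4.40), without overlap. The difference was -0.56 ± 0.04 (adjusted p = 2.51e-13). Pcsk2, the prohormone convertase that trims neuropeptide precursors, also showed no overlap, with 8.78 to 9.03 in D2 carriers (median 8.89) and 9.05 to 9.35 in B6 carriers (median 9.16). It was lower in D2 carriers by a difference of -0.29 ± 0.03 (adjusted p = 3.41e-08).

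Rbbp9, a serine hydrolase named for binding the retinoblastoma protein, had the lowest adjusted p of all genes in cortex Ctr. D2 carriers kept to a narrow band from 4.10 to 4.29 log2 CPM (median 4.20), and B6 carriers ran from 4.32 to 5.15 (median 5.02). The ranges did not overlap, but the lowest B6 carrier, BXD95, lay next to the D2 carriers, while the next B6 carrier was at 4.94. The difference was -0.78 ± 0.05 (adjusted p = 2.87e-14). Larger still, though in a gene of low level, was that of the zinc finger factor Ovol2 (-0.99 ± 0.09, adjusted p = 9.85e-09), with medians of 2.18 and 3.21.

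Other linked genes lower in D2 carriers were Mgme1, an exonuclease of mitochondrial DNA upkeep (-0.62, adjusted p = 3.08e-07), and Polr3f, a subunit of RNA polymerase III (-0.45, adjusted p = 1.26e-08). The nucleolar factor Esf1 (-0.38, adjusted p = 1.86e-06) and the sodium and calcium exchanger Slc24a3 (-0.38, adjusted p = 9.25e-06) followed. Snx5, a sorting nexin of the early endosome, differed by -0.24 (adjusted p = 4.02e-07), and the actin severing protein Dstn by -0.17 (adjusted p = 1.7e-05). The 4 linked genes higher in D2 carriers were Gm5535 (1.05), the lens filament gene Bfsp1 (0.94), Cstl1 (0.92) and Rem1 (0.63), all of low level, with D2 medians from -0.34 to 0.61 log2 CPM. Esf1 and Slc24a3 were chosen after their values were seen.

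**Figure D2:**
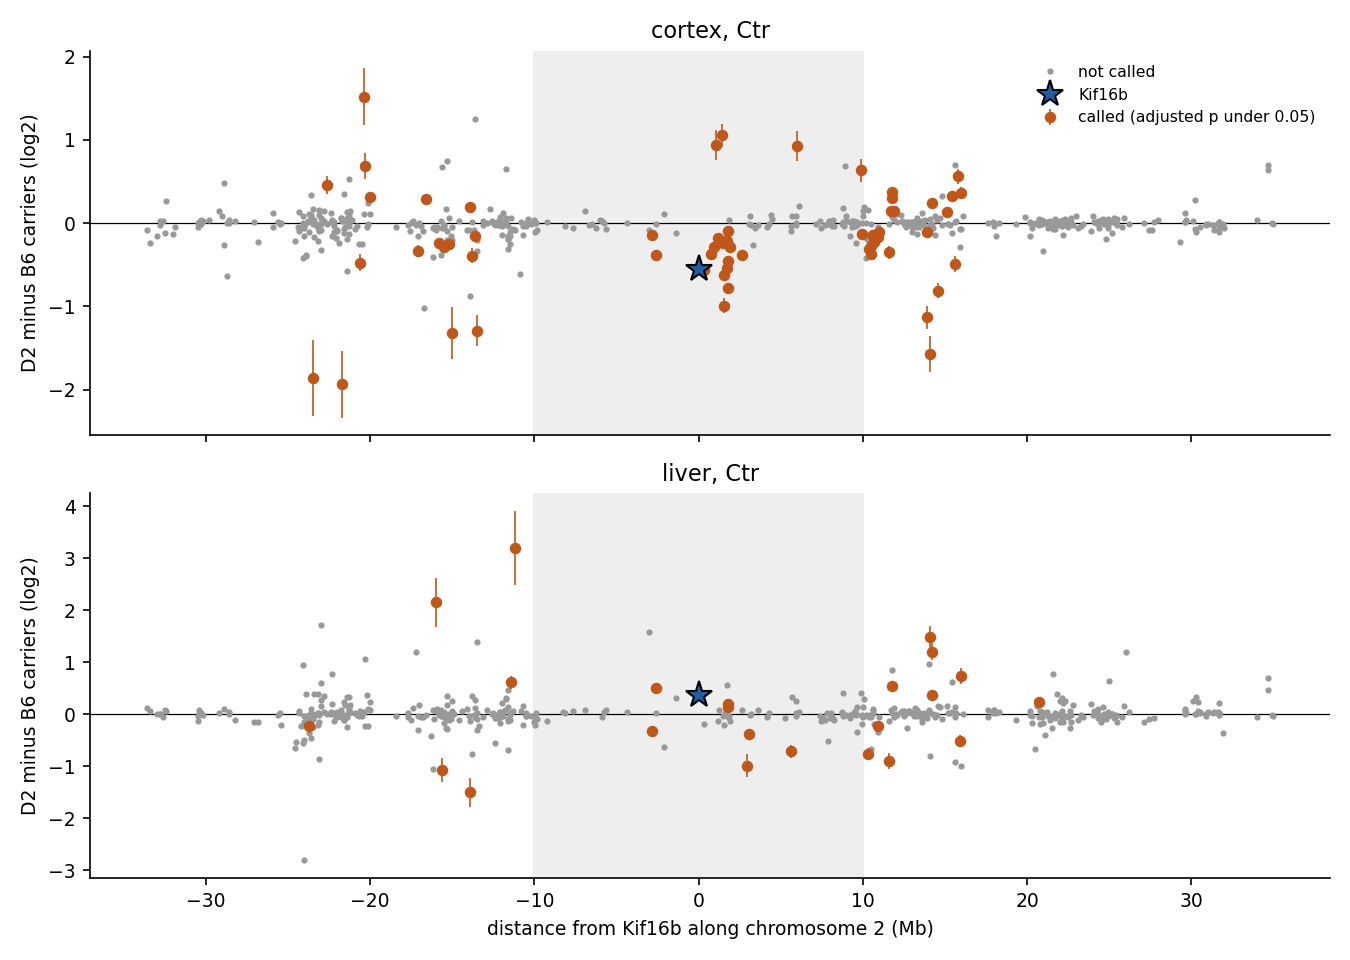
Difference in level between D2 and B6 carriers (log2, with standard errors for called genes) against distance from Kif16b (Mb) in cortex and liver Ctr, with the window of linked genes in grey. In cortex 18 of 20 genes within 2 Mb were called, and in liver 3 of 15, Kif16b included.

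After SD, cortex gave much the same picture near the locus. There, 74 of 14896 genes (0.497%) were called, 22 higher and 52 lower in D2 carriers, and 21 of 96 linked genes were among them. The lists of both conditions share 20 linked genes, 83.3% of those called in Ctr and 95.2% of those called after SD. Over all genes they share 51, 53.7% and 68.9% of each. Both conditions come from the same lines, in separate pools. For Rbbp9 the difference after SD was -0.81 (adjusted p = 2.44e-13), for Snrpb2 -0.55 (adjusted p = 7.11e-12) and for Pcsk2 -0.26 (adjusted p = 6.25e-09). Without BXD79, BXD85 and BXD101, lines pooled from fewer mice, the counts over all genes fell to 63 in Ctr and 49 after SD, and with 1 line of each family of sublines the count after SD was 48.

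Liver gave fewer calls. In Ctr, 30 of 14107 genes (0.213%) were called, 18 higher and 12 lower in D2 carriers, and 8 of the 77 linked genes were among them, 4 in each direction. Ndufaf5, an assembly factor of respiratory complex I, ranged from 4.92 to 5.71 log2 CPM in D2 carriers (median 5.38) and from 4.41 to 5.13 in B6 carriers (median 4.91). All lines but BXD64, a D2 carrier, lay on the side of their group. The difference was 0.51 ± 0.07 (adjusted p = 9.89e-05), while cortex gave -0.02 (adjusted p of the difference between tissues 0.000175). Thrombomodulin (Thbd), the receptor of the vessel wall that turns thrombin toward anticoagulation, was lower in D2 carriers (-0.71 ± 0.12, adjusted p = 0.00118), as were the Rab5 regulator Rin2 (-0.39, adjusted p = 0.00682), the protease Tasp1 (-0.33, adjusted p = 0.00128) and BC039771 (-0.99, adjusted p = 0.0346).

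After SD, 18 of 14107 liver genes (0.128%) were called, 11 higher and 7 lower, with 6 of 77 linked genes among them. The linked lists of the conditions share 3 genes, 37.5% and 50% of each, and the lists over all genes share 10, 33.3% and 55.6% of each. Ndufaf5 (0.59, adjusted p = 1.61e-05) and Rbbp9 (0.29, adjusted p = 1.61e-05) were higher in D2 carriers in both conditions, and Snrpb2 (-0.27, adjusted p = 0.0297) and Mgme1 (-0.28, adjusted p = 0.0338) passed the threshold after SD. For Ndufaf5 the SD pool of BXD70 read 6.33, while the next D2 carrier, BXD48, was at 5.66. With 1 line of each family of sublines, 18 genes were called in liver Ctr, and without BXD70, 32 were called after SD. Liver libraries held fewer reads than cortex libraries, and what part depth had in the lower counts was not tested.

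The allele difference itself differed between the tissues for 35 of 12695 genes listed in both (0.276%), and 29 of these lie on chromosome 2. In 26 of the 35, the difference was higher in liver, and in 20 the signs were opposite. These signs are those of the estimates, whether or not the difference was called in either tissue. Of the 95 genes called in cortex Ctr and the 30 in liver Ctr, 10 were called in both, 7 of them in the same direction. Of the 72 linked genes listed in both tissues, 14 were called, 8 of them with opposite signs. Rbbp9 led this list: D2 carriers were lower in cortex (-0.78) and higher in liver (0.20 ± 0.03, adjusted p = 0.000299), a gap of 0.99 ± 0.06 (adjusted p = 3.14e-13). In liver its levels ran from 6.01 to 6.32 in D2 carriers (median 6.24) and from 5.89 to 6.17 in B6 carriers (median 6.02), with some overlap. Sec23b, a coat protein of vesicles leaving the endoplasmic reticulum, also had opposite signs in the lines, with -0.09 in cortex (adjusted p = 0.0343) and 0.14 in liver (adjusted p = 0.0157). Between the parental strains it was not called, with -0.07 in cortex (adjusted p = 0.353) and -0.08 in liver (adjusted p = 0.503). Snrpb2 and Mgme1 kept their sign and were closer to 0 in liver, with gaps of 0.37 (adjusted p = 0.00916) and 0.41 (adjusted p = 0.0137).

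**Figure D3:**
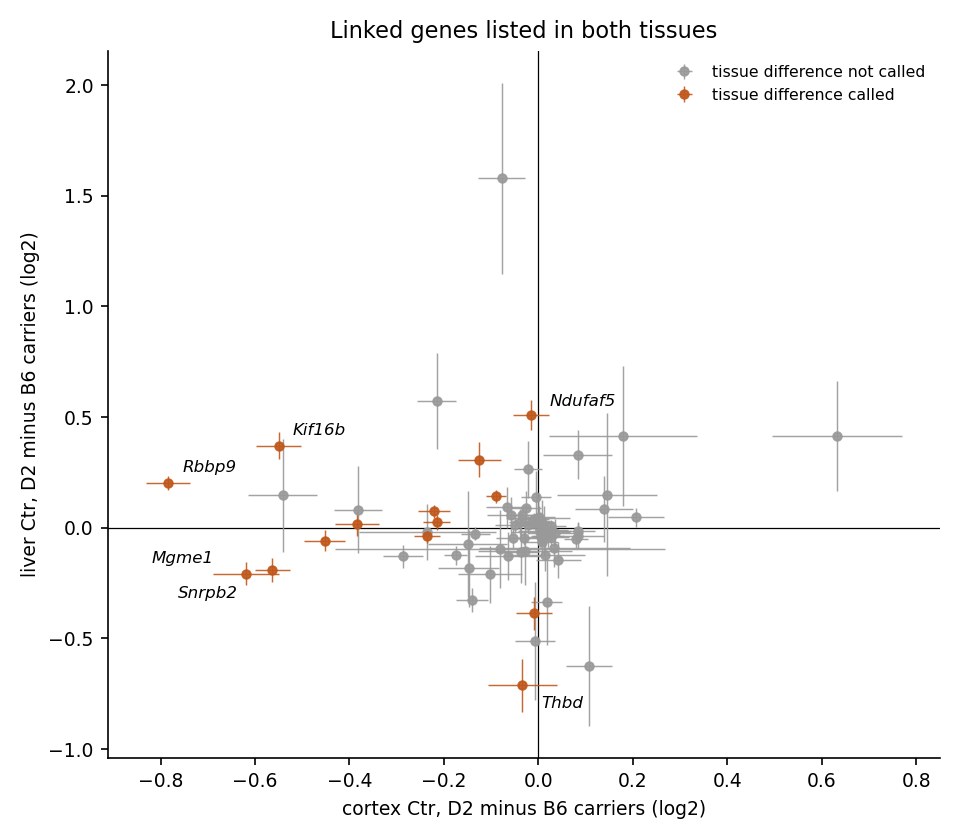
Difference between D2 and B6 carriers (log2, with standard errors) in cortex Ctr and liver Ctr for the 72 linked genes listed in both tissues, with the 14 genes whose difference differed between tissues in orange. Kif16b and Rbbp9 have lower levels in D2 carriers in cortex and higher levels in liver.

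Promoters of 3 members of this stretch are shown because these genes moved together in cortex, lower in D2 carriers, while Kif16b and Rbbp9 turned around in liver and Snrpb2 did not. The sequences are those of RefSeq for the B6 reference GRCm38.p6, in windows of 300 bases around the start of each gene. They lie at chr2:142901415-142901714 (minus strand) for Kif16b, chr2:144550810-144551109 (minus strand) for Rbbp9 and chr2:143062819-143063118 (plus strand) for Snrpb2. Motifs searched on both strands were the E-box CACGTG, the cyclic AMP response element TGACGTCA, the GC box GGGCGG and the CCAAT box CCAAT, and capitals mark each match.
Kif16b: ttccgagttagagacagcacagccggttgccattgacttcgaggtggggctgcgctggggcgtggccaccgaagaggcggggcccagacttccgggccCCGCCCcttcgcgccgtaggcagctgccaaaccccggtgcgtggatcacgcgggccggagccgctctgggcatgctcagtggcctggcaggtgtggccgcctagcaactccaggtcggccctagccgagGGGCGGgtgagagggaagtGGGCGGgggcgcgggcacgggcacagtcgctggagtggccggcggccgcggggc
Rbbp9: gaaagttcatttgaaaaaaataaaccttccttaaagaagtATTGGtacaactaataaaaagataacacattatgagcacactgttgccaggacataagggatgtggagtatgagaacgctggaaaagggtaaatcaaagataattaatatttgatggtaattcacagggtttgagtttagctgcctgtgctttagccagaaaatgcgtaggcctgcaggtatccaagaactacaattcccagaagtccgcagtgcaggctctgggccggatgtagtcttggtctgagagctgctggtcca
Snrpb2: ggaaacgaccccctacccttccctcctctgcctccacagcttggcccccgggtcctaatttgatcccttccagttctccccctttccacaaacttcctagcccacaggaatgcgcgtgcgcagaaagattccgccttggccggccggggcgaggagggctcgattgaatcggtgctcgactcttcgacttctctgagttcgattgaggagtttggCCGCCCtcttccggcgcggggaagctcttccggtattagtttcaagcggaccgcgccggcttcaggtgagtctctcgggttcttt
Kif16b held 3 GC boxes and Snrpb2 held 1, while Rbbp9 held 1 CCAAT box and no GC box. None of the 3 held an E-box or a cyclic AMP response element. Over 32851 promoters of the same length, 35.7% held a GC box, 37.4% a CCAAT box, 7.15% an E-box and 1.79% a cyclic AMP response element. These matches describe the letters of the B6 reference, and the D2 sequence was not used here.

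Called genes were not confined to the linked window. In cortex Ctr, 33 of 205 genes from 10 to 20 Mb away were called (16.1%), 7 of 321 from 20 to 40 Mb, and 0 of 539 farther along chromosome 2 by limma, where 20 had an unadjusted p under 0.05. In liver Ctr, 16 of 994 genes of chromosome 2 beyond 10 Mb were called. The 3 largest differences there in cortex were in genes of low level, with D2 medians from -3.15 to -1.75 log2 CPM. They were Tgm7, a transglutaminase (-1.94, adjusted p = 0.00749), the protease inhibitor Spint1 (-1.86, adjusted p = 0.0405) and the adaptor Sla2 (-1.57, adjusted p = 1.49e-05). In liver they were the adrenergic receptor Adra1d (3.20, adjusted p = 0.0396), Usp50 (2.16, adjusted p = 0.0305) and Fbln7 (-1.50, adjusted p = 0.00344). Manbal at 14.6 Mb, chosen after its values were seen, ran from 3.77 to 4.92 log2 CPM in D2 carriers (median 4.03) and from 4.21 to 5.11 in B6 carriers (median 4.97) in cortex Ctr. Its difference was -0.81 (adjusted p = 1.05e-07) in cortex and 0.16 in liver Ctr (adjusted p = 0.165), a gap of 0.98 (adjusted p = 3.75e-07). After SD the liver difference was called (0.31, adjusted p = 0.00923).

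Single lines stood at the level of the other allele over runs of neighbouring genes. For each called gene, a line was counted as past the midpoint if it lay nearer to the mean of the other allele's carriers. Among genes called in cortex Ctr, the median number of lines past the midpoint was 2.5 within 2 Mb of Kif16b, 5 from 2 to 10 Mb and 6 beyond. The midpoints come from the same values, so these counts describe the lines and test nothing.

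BXD95, a B6 carrier, was on its own side for Kif16b, Snrpb2, Pcsk2os1 and Pcsk2, up to 0.922 Mb from the middle of Kif16b. Of the next 3 called genes it was past the midpoint for Bfsp1 at 1.09 Mb, and on its own side for Dstn at 1.17 Mb and Rrbp1 at 1.22 Mb. From Gm5535 at 1.42 Mb to Slc24a3 at 2.65 Mb it was past the midpoint for 11 of 12 called genes. It stayed there for 14 of 15 called genes from 9.87 to 11.9 Mb and for 10 of 10 from 13.9 to 16 Mb. On the proximal side, from -23.5 to -13.5 Mb, it was past the midpoint for 0 of 17. In liver Ctr it was past the midpoint for most called distal genes: Rbbp9, Sec23b, BC039771, Rin2, Pdrg1, Cdk5rap1, 5430405H02Rik, Ndrg3, Dsn1, Actr5 and Ppp1r16b. The called distal genes on its own side were Thbd at 5.65 Mb, Commd7 at 10.9 Mb, E2f1 at 11.8 Mb and Fitm2 at 20.7 Mb. Proximal genes past the midpoint were Tasp1 (-2.81 Mb), Adra1d (-11.2 Mb), Rnf24 (-11.4 Mb) and Usp50 (-16 Mb). Those on its own side were Ndufaf5, Fbln7, Itpripl1 and Ccdc32.

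BXD56, also a B6 carrier, was past the midpoint for 2 of the 4 genes at the locus in Ctr, Kif16b and Pcsk2os1, and for neither after SD. It was past it for 0 of the 2 genes from -2.81 to -2.61 Mb and 2 of the 12 from 1.42 to 2.65 Mb. Farther out it was so for 13 of 17 genes on the proximal side from -23.5 to -13.5 Mb, and distally for 11 of 15 and 7 of 10 genes in the stretches starting at 9.87 and 13.9 Mb. Among D2 carriers, BXD75 was past the midpoint for 11 of 15 genes from 9.87 to 11.9 Mb and for 0 of 10 beyond, and BXD70 for 0 of 15 and then 8 of 10. On the proximal side, 6 D2 carriers sat at the B6 level for most of the 17 genes: BXD48 and BXD49 for 16 each, BXD51 for 15, BXD98 for 14, and BXD70 and BXD48a for 13 each. BXD64 was past the midpoint for both genes called proximal of Kif16b within 10 Mb in cortex, Tasp1 at -2.81 Mb and Esf1 at -2.61 Mb, and in liver for Ndufaf5 at -2.57 Mb and Tasp1, but for none of the 4 cortex genes at the locus. In liver Ctr, BXD64 and BXD61 were the D2 carriers past the midpoint for Kif16b. Genotypes along the chromosome were not used here, so where these runs meet a change of haplotype was not tested.

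**Figure D4:**
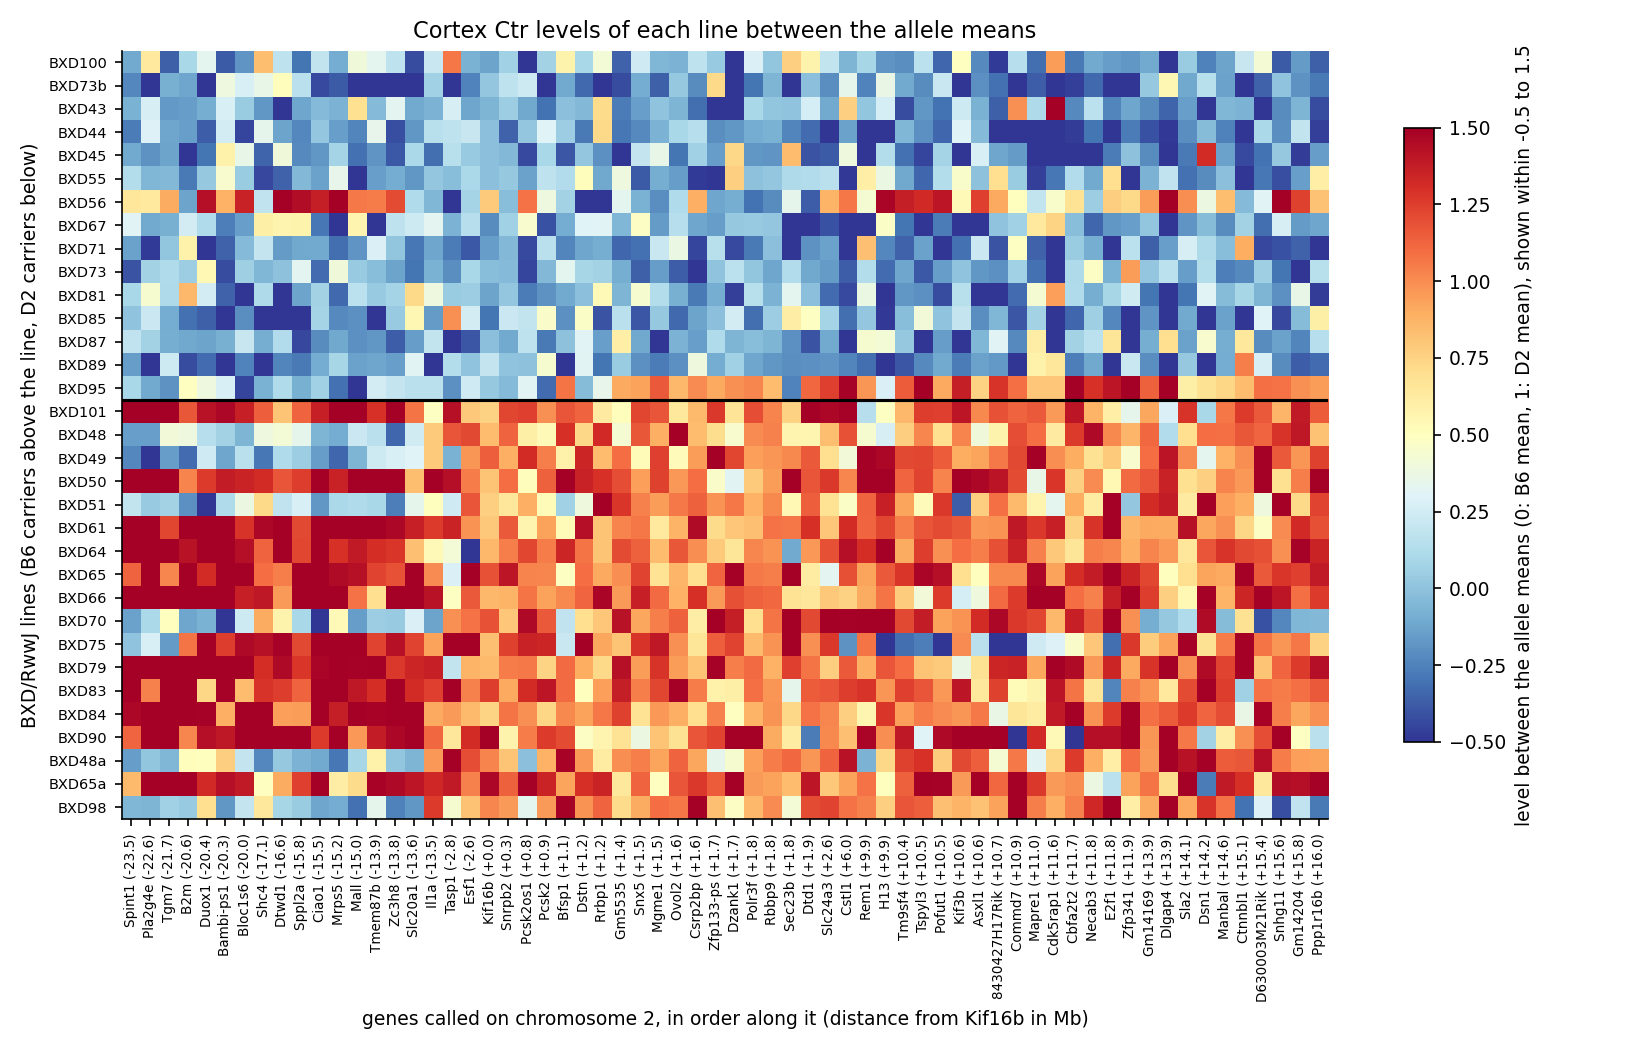
Cortex Ctr level of each line for the 64 genes called on chromosome 2, placed between the mean of the B6 carriers (0) and that of the D2 carriers (1), with genes in order along the chromosome and their distance from Kif16b in Mb. BXD95 is past the midpoint for 11 of 12 genes from 1.42 to 2.65 Mb, and 6 D2 carriers lie at the B6 level from -23.5 to -13.5 Mb.

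The parental strains gave an outside check of direction on chromosome 2. Their reads were aligned to the same reference, so this check cannot show what reads from D2 haplotypes missed. DBA/2J and C57BL/6J differed in 3804 of 14896 cortex genes (25.5%) and 2524 of 14107 liver genes (17.9%). Of the 24 linked genes called in cortex of the lines, 22 had the same sign between the strains, and 20 of these were also called there. The exceptions were Rem1, with a parental value of -0.06 (adjusted p = 0.91), and Dzank1, lower in D2 carriers (-0.22, adjusted p = 0.00265) and higher in DBA/2J (0.13, adjusted p = 0.023). Beyond 10 Mb on chromosome 2, 39 of 40 called genes had the same sign. In liver it was 7 of 8 linked genes, all but Sec23b, and 15 of 16 beyond.

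Genes on other chromosomes made up 28 of the 95 calls in cortex Ctr, 7 higher and 21 lower in D2 carriers, out of 13444 listed (0.208%). Here 12 had the same sign between the parental strains and 16 the opposite one. Among the 15 that were called in the strains, 5 had the same sign and 10 the opposite. In liver Ctr 5 genes on other chromosomes were called, all higher in D2 carriers: Clstn3, a calsyntenin (0.65, adjusted p = 0.0307), Sh3bgrl2 (0.24, adjusted p = 0.0346), the organic anion exporter Abcc3 (0.23, adjusted p = 0.00241), Nudt12 (0.15, adjusted p = 0.0174) and choline dehydrogenase Chdh (0.15, adjusted p = 0.00194). Between the parental strains 2 of these 5 had the same sign and 3 the opposite, and limma called 0.

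The 5 largest of these differences in cortex all ran against the parental strains. Fggy, a carbohydrate kinase, had a median of 3.55 log2 CPM in D2 carriers and -2.20 in B6 carriers, with ranges from -3.50 to 3.98 and from -4.51 to 3.69. The lines fell on 2 levels rather than around 2 means, and 3 D2 and 4 B6 carriers were on the level of the other group. The difference was 3.68 ± 0.91 (adjusted p = 0.0425), whereas DBA/2J was below C57BL/6J by -7.05 (adjusted p = 1.01e-09). The others were 1700030C10Rik (2.84 in the lines and -3.19 between the strains), 1700019G17Rik (1.59 and -3.03), Sfi1 (-1.09 and 2.36) and Greb1 (-0.76 and 0.72).

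Several of these genes split the lines in the same way. For Fggy on chromosome 4 and 1700019G17Rik on chromosome 6, the lines past the midpoint were the D2 carriers BXD70, BXD84 and BXD101 and the B6 carriers BXD56, BXD67, BXD95 and BXD100. The same 7 lines were past it for Id2, Odc1 and Ywhaq, genes of chromosome 12 between 17.55 and 25.78 Mb of mm9 that were chosen after their values were seen. Kcnf1, a potassium channel subunit at 17.18 Mb, had BXD89 in place of BXD56, and 1700030C10Rik at 20.82 Mb had 6 of the 7 lines. Others split the lines differently. Greb1 at 16.68 Mb had 10 lines past the midpoint, with BXD64, BXD65, BXD65a and BXD71 added and BXD84 absent, and Sfi1 on chromosome 11 had 9, of which BXD70, BXD67, BXD95 and BXD100 were among the 7. Id2 (0.29, adjusted p = 0.0105) and Kcnf1 (0.24, adjusted p = 0.0343) were called, and Ywhaq (0.30, adjusted p = 0.0589) and Odc1 (0.48, adjusted p = 0.207) were not. With 33 lines, an effect of the Kif16b stretch on such genes and a shared inheritance with other loci cannot be told apart.

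**Figure D5:**
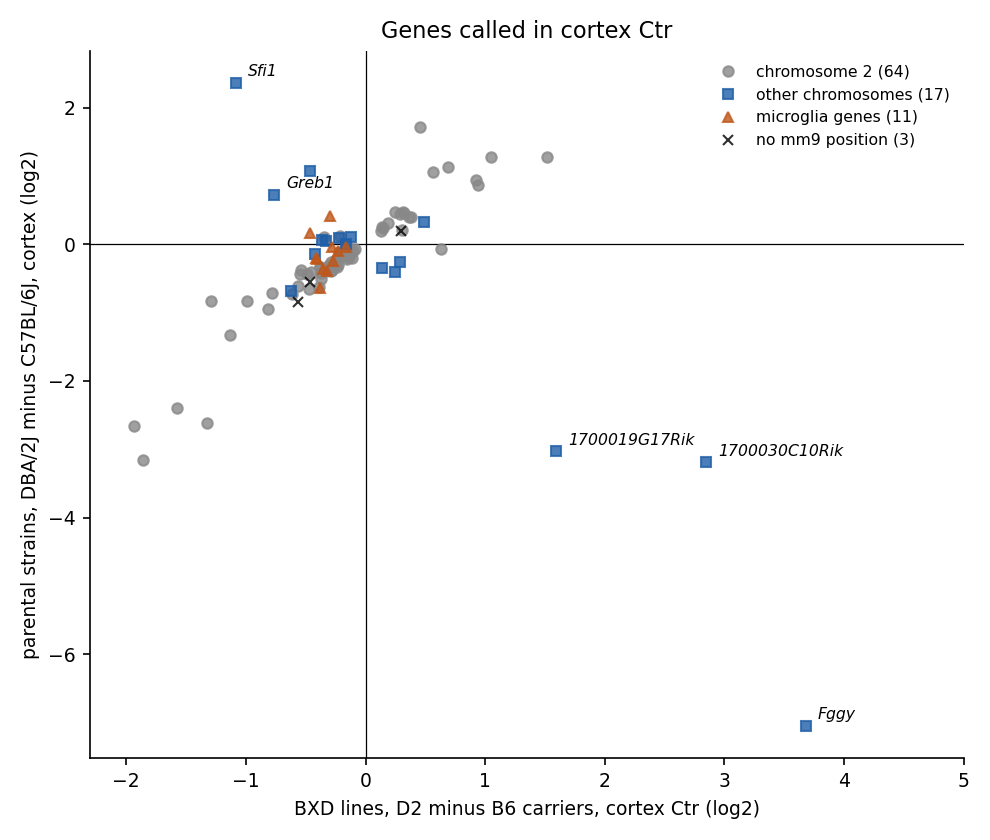
Difference between D2 and B6 carriers in cortex Ctr (log2) against the difference between DBA/2J and C57BL/6J (log2) for the genes called in the lines, by chromosome and for microglia genes. Of the linked genes, 22 of 24 share the sign of the strains, while the 5 named genes of other chromosomes have the opposite sign in the strains.

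A group of the genes on other chromosomes is known from microglia, the resident macrophages of the brain. Csf1r, the receptor on which microglia depend for survival, ran from 6.28 to 6.79 log2 CPM in D2 carriers (median 6.58) and from 6.58 to 7.10 in B6 carriers (median 6.82) in cortex Ctr. The ranges overlapped, and 1 D2 and 2 B6 carriers were past the midpoint. It was lower in D2 carriers by a difference of -0.27 ± 0.04 (adjusted p = 6.28e-05). Lower too were the lysosomal protease Ctss (-0.47, adjusted p = 0.000927), the complement subunit C1qa (-0.40, adjusted p = 0.00142) and the integrins Itgam (-0.28, adjusted p = 0.00158) and Itgb2 (-0.36, adjusted p = 0.0023). The lysosomal protease Ctsd (-0.16, adjusted p = 0.00142) and the phagocyte oxidase subunit Ncf1 (-0.41, adjusted p = 0.000474) had the same direction.

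Read as a list of 30 microglia genes, which was drawn up after these values were seen, 11 of 30 were called in cortex Ctr, all lower in D2 carriers, against 0.638% of all genes. In all, 28 of 30 had values below 0, with a median of -0.23, against a median of -0.00269 over all genes, 52.5% of which lay below 0. After SD, 5 of 30 were called, against 0.497% of all genes, and the median was -0.18. That count ran from 2 with 1 line of each family of sublines to 9 with the parental strains added. With libraries centred on their medians or quantile normalized, 10 of 30 were called in Ctr and 28 lay below 0. The summed level of the list in Ctr ran from 877 to 1090 CPM in D2 carriers (median 993) and from 1030 to 1280 CPM in B6 carriers (median 1170), and Ctsd was its most abundant gene. A list chosen on these values gives no test of its own. The differences of its members in Ctr ran from -0.468 to 0.365. In bulk tissue, fewer microglia and less RNA per microglial cell cannot be told apart, and neither was tested. Nor can an effect of the Kif16b stretch and a shared inheritance with other loci be told apart here.

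Cx3cr1, P2ry12 and Tmem119 are markers specific to microglia within the brain. Of these 3, limma called 0, and 1 had an unadjusted p under 0.05. Cx3cr1 had a difference of -0.17 (adjusted p = 0.0589), and the others -0.07 and -0.09. Their sum ran from 91.9 to 125 CPM in D2 carriers (median 112) and from 94 to 134 CPM in B6 carriers (median 122), with Cx3cr1 the most abundant. Between the parental strains, 25 of the 30 genes were lower in DBA/2J in cortex, with a median of -0.21. Over all cortex genes the median was 0.011, 47.2% lay below 0 and 25.5% were called between the strains. Of the 11 called in the lines, 9 were lower in DBA/2J, 5 of them called. Ly86 (0.41) was called in the other direction, and Ctss had a parental value of 0.16 (adjusted p = 0.06). In liver Ctr, limma called 0 of the 28 listed genes, against 0.213% of all genes. At an unadjusted p under 0.05 there was 1, against 7.48% of all genes. Of the 28, 21 lay below 0, with a median of -0.0658, while 50.9% of all genes lay below 0. After SD 10 lay below 0 and 18 above. Fcrls and Gpr34 were not listed in liver.

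Markers of other cell types gave 0 calls by limma in any comparison of levels. In cortex Ctr the medians of the differences were 0.0242 for 5 neuron markers, -0.0837 for 3 astrocyte markers, -0.0431 for 3 oligodendrocyte markers and -0.052 for 6 endothelial genes, a list added after the data were seen, and 0 of these 17 genes had an unadjusted p under 0.05, against 6.66% of all genes. Of the 4 choroid plexus markers, Folr1 was not listed in cortex, and the summed level, mostly Ttr, ran from 8.86 to 152 CPM in D2 carriers (median 24) and from 7.09 to 147 CPM in B6 carriers (median 14). After SD the medians were 17 and 16.5 CPM. Of 4 pituitary markers, Prl and Cga were not listed, and the sum, mostly Pomc, had medians of 1.15 and 1.13 CPM, with one B6 carrier at 59.9 CPM. B cell markers were not listed in cortex, and in liver Cd79b led a sum with medians of 11.9 and 12.4 CPM. In liver the hepatocyte markers, led by Alb, had medians of 1280 and 1180 CPM. The exocrine pancreas markers were there through Cela1 alone (57.9 and 60.9 CPM), and the erythroid markers through Alas2 alone (243 and 244 CPM), since Cpa1, Ctrb1, Pnlip, Amy2a5, Hba-a1 and Hbb-b1 were not listed.

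Aqp4, a water channel of astrocytes in the brain, stood out in liver and was chosen after its values were seen. D2 carriers ran from 4.44 to 6.66 log2 CPM (median 6.09) and B6 carriers from 3.55 to 6.64 (median 4.75), with 4 lines of each group past the midpoint. The difference of 1.02 ± 0.24 did not pass the threshold in liver (adjusted p = 0.0595), while its gap to cortex of 1.10 ± 0.24 did (adjusted p = 0.0293). In cortex the difference was -0.08 (adjusted p = 0.93).

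Of 7 listed kinesin-3 motors, Kif16b alone was called in cortex Ctr and, of 6 listed, in liver Ctr. The highest difference in the cortex list was 0.0118 and the median -0.035. Of 29 genes of early endosomes and their cargo, among them Rab5 and Rab14 GTPases, retromer subunits and receptors for growth factors, 1 was called in cortex Ctr, the linked Snx5, and 0 in liver Ctr by limma, with 4 and 1 at an unadjusted p under 0.05. Over all genes 0.638% were called in cortex Ctr and 6.66% had such a p, and in liver Ctr 0.213% and 7.48%. Of 25 AMPA receptor genes and their partners, 0 were called in cortex Ctr by limma and 0 had an unadjusted p under 0.05, with differences from -0.19 to 0.09, where 0.638% and 6.66% of all genes did so. The same counts held for 21 activity-regulated genes (from -0.20 to 0.16), 19 clock genes (from -0.07 to 0.25) and 18 chaperones of heat shock and the endoplasmic reticulum (from -0.25 to 0.08). After SD limma again called 0 genes of these 4 lists in cortex, with 3 of 25, 0 of 21, 1 of 19 and 5 of 18 at an unadjusted p under 0.05, against 7.28% of all genes. Of the chaperones 16 of 18 lay above 0 there, with a median of 0.0646, while 49% of all genes lay below 0, and for the change 15 of 18, with 46.9% of all genes below 0. In liver Ctr limma called 0 of 18 clock genes and 0 of 18 chaperones, with 2 and 6 at an unadjusted p under 0.05, against 7.48% of all genes. Of the clock genes 15 lay above 0, with a median of 0.0717, and of the chaperones 16, with a median of 0.0813, while 50.9% of all genes lay below 0. After SD in liver 7 clock genes lay above 0 and 11 below, with a median of -0.00794 and 1 at an unadjusted p under 0.05. Of the chaperones 8 lay above 0 and 10 below, with a median of -0.00117, and 0 had an unadjusted p under 0.05 by limma. Among all liver genes after SD, 50.6% lay below 0 and 4.27% had such a p. For the change after SD in liver 15 of 18 clock genes lay below 0, with a median of -0.0812, and 17 of 18 chaperones, with a median of -0.0591. Of these, 0 clock genes and 5 chaperones had an unadjusted p under 0.05, and limma called 0. Over all genes 48.9% lay below 0 and 4.61% had such a p.

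The response to sleep loss was large in both groups of lines. In cortex, 9682 of 14896 genes (65%) changed after SD in the D2 carriers and 9020 (60.6%) in the B6 carriers. In liver, 4896 of 14107 genes (34.7%) and 5530 (39.2%) changed. The groups differ in size, with 18 and 15 lines, so these counts are not a comparison. Kif16b itself fell in cortex of both groups, by 0.38 ± 0.04 log2 in D2 carriers (adjusted p = 1.88e-08) and by 0.36 ± 0.03 in B6 carriers (adjusted p = 1.59e-08). In liver its change was -0.09 ± 0.08 (adjusted p = 0.403) and -0.13 ± 0.05 (adjusted p = 0.0485), respectively. The D2 mean in liver includes BXD70, with a change of -1.32. The medians were -0.02 in D2 and -0.10 in B6 carriers.

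Whether the allele altered that response was tested on the change of each line, SD minus Ctr. Limma called 0 of 14896 genes in cortex (0%) and 0 of 14107 in liver (0%). At an unadjusted p under 0.05 there were 673 genes (4.52%) in cortex and 651 (4.61%) in liver. Limma with voom weights called 0 in both tissues, with 690 and 711 genes at an unadjusted p under 0.05. Without the line as a replicate block, in one fit of both conditions, the count was again 0 in both tissues (258 and 194 genes at an unadjusted p under 0.05). The lines were kept as blocks because Ctr and SD pools of a line resembled each other, with correlations over genes of 0.286 to 0.713 in cortex and 0.341 to 0.626 in liver after removing the mean of each gene.

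For Kif16b the changes of D2 carriers ran from -0.63 to 0.08 log2 in cortex (median -0.38) and those of B6 carriers from -0.60 to -0.09 (median -0.37). The ranges overlapped almost wholly. The difference between alleles was -0.02 ± 0.06 (permutation p = 0.726), with a 95% interval from -0.13 to 0.09. In CPM, where a like ratio on a higher level is a larger step, the D2 carriers fell by 4.14 and the B6 carriers by 5.75, and the difference was 1.61 with the sign reversed (permutation p = 0.0323). In liver the difference in the change was 0.04 ± 0.10 log2 (permutation p = 0.724), with a 95% interval from -0.16 to 0.25. Without BXD70 this difference was 0.11.

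Limma called 0 linked genes for the change, with 7 of 96 at an unadjusted p under 0.05 in cortex and 2 of 77 in liver. Over the 24 linked genes called in cortex Ctr, the differences in change ran from -0.22 to 0.54 log2, and 3 of their 95% intervals did not hold 0. The largest was that of Bfsp1 (0.54, adjusted p = 0.922). Over the 8 called in liver Ctr, they ran from -0.55 to 0.31. The half-width of the 95% interval of a gene's difference in change had a median of 0.102 log2 in cortex and 0.173 in liver, so differences smaller than this lay within the error for a typical gene. The lowest adjusted p in liver was that of Ccm2l (1.00, adjusted p = 0.429), chosen after its values were seen. Ccm2l was lower in D2 carriers in liver Ctr (-1.10, adjusted p = 0.000299) and had a value of -0.10 after SD (adjusted p = 1).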

How the data were processed

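RNA-seq of cortex and liver was read from the log2 CPM values deposited by the authors, who aligned reads to mm9 with STAR, counted RefSeq genes with HTSeq, dropped genes with a mean count under 10, and scaled the counts with edgeR (TMM) into log2 CPM, adding a small prior count. Undoing the scaling gave whole reads within 0.02 of a read, from which depth was taken. Libraries were matched to lines by column name, and alleles were assigned from the list of B6 carriers stated above. The 4 BXD/TyJ lines, whose allele was not given, were left out.

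Limma 3.58.1 in R 4.3.3 compared D2 with B6 carriers in each tissue for Ctr, SD and the change of each line (lmFit, eBayes with a variance trend), with Benjamini-Hochberg adjustment over all genes listed and a threshold of 0.05. The gap between tissues was fitted on liver minus cortex within lines, and parental strains with condition as covariate. Permutation tests were two-sided with 100000 permutations in scipy 1.17.1, and Python 3.11.15 and matplotlib 3.10.9 drew the plots. Positions were found for 98% of cortex and 98.3% of liver genes. The fits were tested on simulated data.

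Genes named are Kif16b; in each tissue the 8 linked genes called in Ctr with the largest differences; called genes within 2 Mb; the 5 largest on other chromosomes; the 3 largest on chromosome 2 beyond 10 Mb; and up to 4 of each gene list (kinesin-3 motors, early endosome partners, AMPA receptors, activity-regulated genes, clock genes, chaperones, and markers of neurons, astrocytes, oligodendrocytes, microglia, hepatocytes, pituitary, choroid plexus, B cells, exocrine pancreas and erythroid cells). Other genes named, the list of 30 microglia genes and the 6 endothelial genes were chosen after their values were seen. The members and lists were all chosen with earlier results of these data known. Alternatives were other variance models, scalings, a filter on low values, voom, subsets of lines and added parental strains. Errors are standard errors unless stated.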

Additional observations from a re-analysis of the deposited data

Results flagged for a closer look

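The allele difference, D2 minus B6 carriers in Ctr, differed between liver and cortex for 19 of the genes named, by limma on liver minus cortex within lines. At the locus and within 2 Mb of it, liver minus cortex was 0.92 for Kif16b, 0.99 for Rbbp9, 0.41 for Mgme1, 0.39 for Polr3f, 0.37 for Snrpb2, 0.30 for Rrbp1, 0.24 for Csrp2bp, 0.23 for Sec23b, 0.20 for Snx5 and 0.43 for Macrod2. Macrod2 was called in neither tissue alone, with -0.12 in cortex and 0.31 in liver.

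Farther along chromosome 2, the gap was 0.53 for Ndufaf5, -0.38 for Rin2 and -0.68 for Thbd, and at over 10 Mb it was 0.98 for Manbal, 0.38 for Ndrg3, 1.44 for 5430405H02Rik and 3.28 for Adra1d. Ndrg3 and 5430405H02Rik lie at 14.2 and 14.1 Mb, and for both BXD70, BXD56 and BXD95 were the lines past the midpoint in liver. On other chromosomes it was 1.10 for Aqp4 and 0.20 for Itgb5.

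After SD the gap was called for 17 of the 35 genes called in Ctr. Those of Kif16b, Rbbp9, Manbal, Ndufaf5, 5430405H02Rik and Csrp2bp were among them, and those of Thbd (adjusted p = 0.772), Rin2 (adjusted p = 0.663) and Sec23b (adjusted p = 0.776) were not. What part cell composition had in these gaps was not tested.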

How the results depend on the processing

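Among 10 alternative settings per level (12 for the change), the count of called genes ran from 63 to 106 in cortex Ctr, 48 to 106 in cortex SD, 18 to 38 in liver Ctr and 13 to 32 in liver SD. The Kif16b difference kept its sign in all of them: -0.56 to -0.53, -0.57 to -0.55, 0.33 to 0.39 and 0.38 to 0.49. The count was 63 in cortex Ctr and 49 in cortex SD without BXD79, BXD85 and BXD101, and 48 in cortex SD and 18 in liver Ctr with 1 line of each family of sublines. Without BXD70, liver SD gave 32 genes and Kif16b passed the threshold (0.49). The gap between tissues was called for 23 genes in SD.

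Leaving out 1 line at a time gave 68 to 112 genes in cortex Ctr, 54 to 109 in cortex SD, 21 to 40 in liver Ctr, 15 to 32 in liver SD, 0 in cortex change, and 0 to 1 in liver change (1 without BXD95). The highest counts came without BXD56 in cortex Ctr, cortex SD and liver Ctr, and without BXD70 in liver SD. The Kif16b difference ran from -0.58 to -0.53, -0.59 to -0.56, 0.35 to 0.39 and 0.39 to 0.49, and for the change from -0.05 to -0.00093 and 0.01 to 0.11.

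For the change, limma called 0 genes in both tissues under all 12 alternatives, 1 of them (a variance trend over the mean change) chosen after seeing the data. Without the replicate block Kif16b had -0.02 in cortex and 0.04 in liver. In linear CPM the cortex value reversed to 1.61, where equal ratios on unequal levels give unequal steps. Of 47 named genes called in cortex, 34 passed the threshold in each of 43 settings that listed them, as did 9 of 18 in liver, and 0 reversed. The broader list of microglia genes had 9 to 13 called in Ctr and 2 to 9 in SD, fewest with 1 line of each family of sublines.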

Other observations

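Id2, Odc1 and Ywhaq on chromosome 12 also differed between the parental strains, and in the opposite direction to the lines. DBA/2J was below C57BL/6J in cortex for Id2 (-0.26, adjusted p = 0.000519), Odc1 (-0.92, adjusted p = 8.09e-07) and Ywhaq (-0.51, adjusted p = 3.38e-07). After SD, Odc1 (0.54, adjusted p = 0.0321), Ywhaq (0.27, adjusted p = 0.0321) and Kcnf1 (0.31, adjusted p = 0.0187) were called higher in D2 carriers.

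The F1 pools gave intermediate cortex Ctr levels for Rbbp9 (4.66 and 4.71) and Snrpb2 (4.09 and 4.20), between pools of C57BL/6J (4.89 and 5.00 for Rbbp9, 4.27 and 4.29 for Snrpb2) and DBA/2J (4.21 and 4.22, 3.72 and 3.75). Kif16b in cortex Ctr was at 4.56 and 4.52 in the F1 pools, nearer to C57BL/6J (4.59 and 4.70) than to DBA/2J (4.12 and 4.16), and after SD at 3.89 and 4.13, with 4.23 and 4.28 in C57BL/6J and 3.86 and 3.89 in DBA/2J. With 1 pool per cross and condition, these values carry no error.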
